A study of Gallus gallus with 32 samples.

Results

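Cytokines and chemokines are secreted proteins through which immune cells call, activate and restrain one another, and each acts through receptors on the surface of its target cell. Chemokines steer cell movement, interleukins and colony-stimulating factors set growth and activation, and the ligands and receptors of the tumour necrosis factor (TNF) family set survival and costimulation. Toll-like receptors recognise microbial molecules and switch many of these genes on. In blood the genes are used mainly by lymphocytes, monocytes, heterophils (the avian counterpart of neutrophils) and thrombocytes, the nucleated clotting cells of birds that also take part in immune responses.

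The 75 genes described here are cytokines, chemokines, their receptors and Toll-like receptors measured in chicken blood. They were chosen by symbol (IL, CCL, CCR, CXCL, CXCR, XCL, XCR, CSF, TNFSF, TNFRSF and TLR followed by their number or letter) among 9680 genes with a probe set carrying a single symbol. The rule itself used no measured difference, though it was set with earlier results of these data known. They comprise 16 interleukins, 20 interleukin receptors or accessory proteins, 11 chemokines, 6 chemokine receptors, 2 receptors of colony-stimulating factors, 6 TNF ligands, 8 TNF receptors and 6 Toll-like receptors. The symbol rule also picked IL4I1, an amino acid oxidase induced by IL4 that is neither a cytokine nor a receptor, and it is counted with the interleukin receptors and accessory proteins. Of the genes, 73 had 1 probe set and 2 (TLR1B and IL4R) had 2 probe sets, of which the brighter was used. They lie on 21 chromosomes, with 13 on chromosome 4 and 12 on chromosome 1. Another 12 genes of these families, IL1B, CCR6, CCR9 and TLR7 among them, were blank in every array, 4 genes on the sex chromosome Z (CCL19, IL11RA, IL6ST and IL7R) were left out, and CXCR1 and TLR3 were left out by the rule.

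RNA from ground blood clots of 32 broiler chickens, 1 array per bird, was measured in 4 groups of 8. They are males given a standard diet with a supplement of comfrey (a medicinal plant), males given the standard diet alone, comfrey-fed females and control females. Every bird is labelled with an age of 32 in months, a unit that is unusual for broilers and may be an error, and the labels give no dose or length of feeding. Values are log2 probe set signals, so a difference of 1 is a 2-fold change. Signals were available for 17894 probe sets, and correlations between arrays lay between 0.945 and 0.984. Marker lists of blood cells were read beside the label of whole blood. The red cell globins HBAD and HBA1 averaged 13.87 and 13.67. A value was available for 6 of 9 listed T cell markers, 5 of 8 for B cells and 6 of 8 for thrombocytes. The counts were 3 of 7 for monocytes, 3 of 8 for red cells, 2 of 9 for heterophils and 3 of 10 for cytotoxic cells. Having a value depends on annotation and blank rows, not on expression. These counts therefore do not show which cells were present. Signals of different probe sets are on no common scale, so each gene is compared only with itself in other birds. Whether the dimmest genes, such as the interleukins IL3 (mean 3.12 over all birds), IL21 (3.52), IL2 (3.64) and IL4 (3.77), stood above background was not analysed here.

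The question of the study was whether the comfrey supplement altered blood expression, and for diet 0 of the 75 genes passed an adjusted p of 0.05 (limma, with Benjamini-Hochberg adjustment over all 17894 probe sets), against 0% of all probe sets. At an unadjusted p under 0.05 there were 6 genes, against 7.99% of all probe sets. Of these, 3 had higher means in comfrey-fed birds, against 3.55% of all probe sets, and 3 had lower ones, against 4.43%. The median difference was -0.013 over the 75 genes and -0.0062 over all probe sets, and 32 genes (42.7%) had positive differences, against 47.4% of all probe sets. For 64 of the 75 genes the 95% interval of the difference lay within 0.5 of 0 in either direction. For all 75 it lay within 1, so a 2-fold change in signal lay outside every interval. Of the 75 genes, 46 had a mean signal below the median of all probe sets. Whether signal follows RNA amount at such levels was not tested, so a 2-fold change in RNA is not excluded for dim genes.

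By role, all 6 Toll-like receptors had positive differences and 10 of the 11 chemokines had negative ones, none past the test. The Toll-like receptor differences ran from 0.043 to 0.33 with a median of 0.15, and were positive in 6 of 6 genes among females and 4 of 6 among males. Among birds numbered 17 to 32 in the sample titles they ran from 0.13 to 0.40. Among birds 1 to 16, TLR4 (-0.17), TLR5 (-0.046) and TLR2A (-0.017) were negative. In that set TLR1A (0.34), TLR2 (0.15) and TLR1B (0.0068) were positive. The exception among the chemokines was XCL1, at 0.14 ± 0.18 (SE). The chemokine receptors were positive in 5 of 6 genes, with a median of 0.12. The interleukins split into 7 positive and 9 negative, and the interleukin receptors and accessory proteins into 7 positive and 13 negative, IL4I1 among the negative. The TNF ligands had 2 positive and 4 negative differences and the TNF receptors 3 positive and 5 negative.

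The genes nearest to a diet difference show how far the groups overlapped. TLR1A, which recognises bacterial lipopeptides together with a TLR2 protein, had a lowest, median and highest signal of 4.68, 5.71 and 6.66 in comfrey-fed birds, against 4.77, 5.47 and 5.83 in control birds. Of the comfrey-fed birds 5 lay above the highest control bird, while the lowest value of all also came from a comfrey-fed bird. The difference was 0.33 ± 0.14 (SE, limma adjusted p = 0.614). IL5RA, the receptor subunit specific for IL5 and in mammals a marker of eosinophils and basophils, ran through 4.49, 5.26 and 5.93 in comfrey-fed birds, against 3.80, 4.74 and 5.71 in control birds. Of the comfrey-fed birds 14 of 16 lay above the control median, and 5 control birds lay below the lowest comfrey-fed bird. The difference of 0.38 ± 0.18 had an adjusted p of 0.615.

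IL15, a survival factor of lymphocytes and natural killer cells, had signals of 10.87, 11.21 and 11.59 in comfrey-fed birds and 10.76, 11.06 and 11.56 in control birds, for a difference of 0.16 ± 0.078. The 3 genes with negative differences were IL23R, the receptor subunit specific for IL23, at -0.18 ± 0.079, TNFSF4, the ligand of the costimulatory receptor TNFRSF4, at -0.14 ± 0.063, and IL22, a cytokine that acts on epithelia, at -0.15 ± 0.065. For IL23R and for TNFSF4, 13 of 16 comfrey-fed birds lay below the control median. For IL22 the number was 10 of 16. Their adjusted p-values lay between 0.614 and 0.63, as did those of the next 6 genes, CXCL13L2 (-0.15), CXCL14 (-0.16), CCL1 (-0.11), IL1R2 (-0.27), TLR2 (0.31) and CXCL12 (-0.23).

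Several well-known inflammatory mediators and homing receptors had smaller diet differences relative to their errors. IL6, the cytokine that drives the acute phase response, differed by -0.023 ± 0.080. IL8L1 and IL8L2, the chicken relatives of the mammalian heterophil and neutrophil attractant CXCL8, differed by -0.28 ± 0.34 and -0.18 ± 0.25. TLR4, the receptor of bacterial lipopolysaccharide, differed by 0.049 ± 0.17, and TLR5, the flagellin receptor, by 0.043 ± 0.080. IL18, an inducer of interferon gamma, differed by 0.23 ± 0.17. Among the homing receptors, CCR7, CXCR4 and CXCR5 differed by 0.11 ± 0.12, 0.18 ± 0.15 and 0.090 ± 0.10. CCL20 and IL12B differed by -0.076 ± 0.067 and 0.055 ± 0.065, and in the TNF family TNFSF10 and TNFRSF18 by -0.058 ± 0.068 and 0.11 ± 0.077. The mean signals of IL6 (4.72), IL12B (4.92), TLR5 (4.95), CCL20 (5.79), IL18 (6.41) and TNFSF10 (6.49) lay below the median of all probe sets (6.55). Whether they stood above background was not tested, so small differences in them do not show unchanged RNA. The 24 genes that the rule for named genes did not pick had diet differences between -0.18 and 0.13. That rule took the 12 smallest p-values for diet, so it left no gene with an unadjusted p under 0.05 unpicked.

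**Figure D1:**
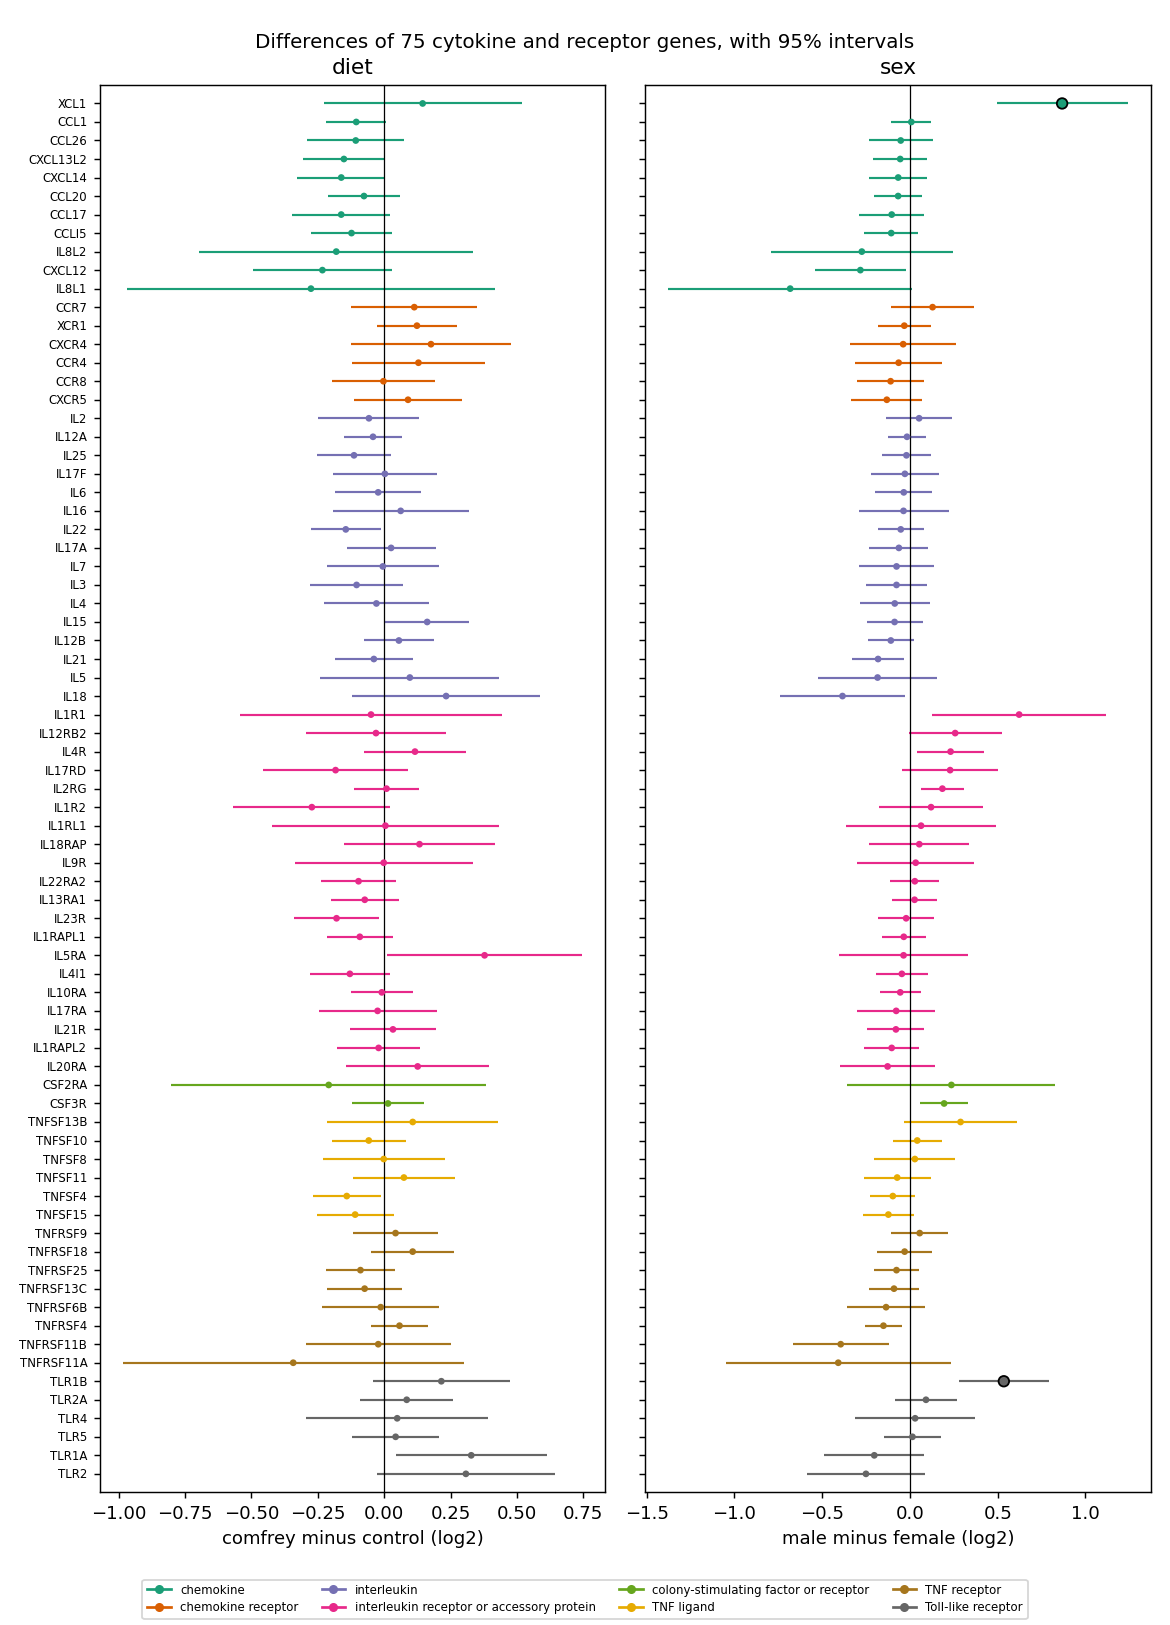
Fitted differences (log2) of the 75 genes between comfrey-fed and control birds (left) and between males and females (right), 16 birds per group, with 95% intervals and colours for the 8 roles. Larger outlined points mark an adjusted p under 0.05, reached by XCL1 and TLR1B for sex and by no gene for diet.

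Between the sexes 2 of the 75 genes passed the test, against 5.35% of all probe sets and 2.94% of single-gene probe sets that lie neither on Z nor on W. Both were higher in males, as were 3.53% of all probe sets and 178 of the 9799 single-gene probe sets off Z and W. They were XCL1, on chromosome 1, and TLR1B, on chromosome 4. XCL1 (lymphotactin) is the C-class chemokine, released in mammals by activated T cells and natural killer cells to attract dendritic cells that carry XCR1. TLR1B is one of the chicken TLR1 proteins, which pair with TLR2 proteins to recognise bacterial lipopeptides.

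XCL1 had a lowest, median and highest signal of 5.44, 6.53 and 7.91 in males, against 5.19, 5.66 and 6.29 in females. Of the 16 males, 9 lay above the highest female and 15 above the female median. The means were 6.55 ± 0.68 in males and 5.69 ± 0.34 in females (SD, n = 16 each), for a difference of 0.87 ± 0.18 (SE, limma adjusted p = 0.00175). The spread was also wider in males, where 4 birds (24, 19, 32 and 29) exceeded 7. XCR1, the receptor of XCL1, differed by -0.032 ± 0.074.

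TLR1B ran through 7.92, 8.62 and 9.15 in males, against 7.51, 8.24 and 8.77 in females. Of the males 7 lay above the highest female, and 6 females lay below the lowest male. The means were 8.61 ± 0.38 in males and 8.07 ± 0.38 in females (SD, n = 16 each), for a difference of 0.54 ± 0.13 (SE, limma adjusted p = 0.00614). The dimmer TLR1B probe set gave a difference of 0.17 ± 0.083 with the same sign, at an adjusted p of 0.286, and the mean of both probe sets gave 0.35 at an adjusted p of 0.0149. TLR1A, the paralogue on the same chromosome, had a negative difference of -0.20 ± 0.14.

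**Figure D2:**
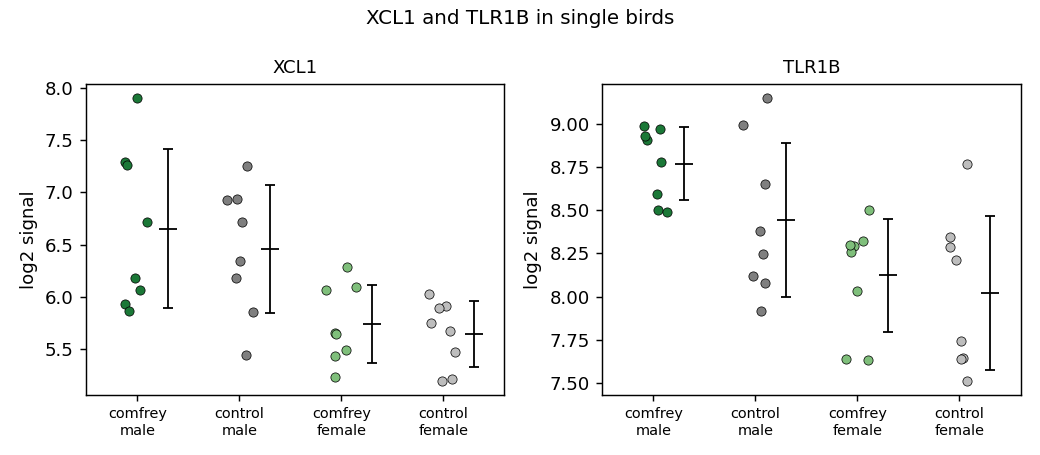
Log2 signal of XCL1 (left) and TLR1B (right) in each of the 32 birds, 8 per group, with the mean and SD beside the points. Males of both diets sit higher than females on average, and the groups overlap.

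The sex difference of XCL1 was similar in size in both diets, and that of TLR1B was 0.65 in comfrey-fed birds and 0.42 in control birds. With the spread of all 32 arrays, XCL1 was 0.92 ± 0.26 higher in males among comfrey-fed birds (adjusted p = 0.0476), and its difference among control birds was 0.82 ± 0.26 (adjusted p = 0.0993). For TLR1B the adjusted p was 0.0377 among comfrey-fed birds and 0.270 among control birds. Neither difference was shown to depend on diet, since the interaction was 0.099 ± 0.37 for XCL1 and 0.23 ± 0.25 for TLR1B (limma adjusted p = 0.989 and 0.932). In comfrey-fed birds 3 genes passed, against 3.13% of all probe sets, the third being TNFSF15. In control birds 0 genes passed in limma, against 2.75% of all probe sets, and 7 had an unadjusted p under 0.05, against 13.4% of all probe sets. In comfrey-fed birds 7 had an unadjusted p under 0.05 too, against 12.2% of all probe sets. These shares within a diet include probe sets on Z and W. Fitted on the 16 comfrey-fed birds alone, XCL1 lost its call (0.92, adjusted p = 0.103), and on the 16 control birds alone both genes lost it (XCL1 0.82, adjusted p = 0.0812, and TLR1B 0.42, adjusted p = 0.432).

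Among the marker lists of blood cells, only thrombocyte markers passed the test for sex. All 6 measured thrombocyte markers had positive male minus female differences. In limma 2 passed, ITGB3 (0.74, adjusted p = 0.0418) and GP1BB (0.49, adjusted p = 0.0385), against 5.35% of all probe sets and 2.94% of single-gene probe sets off Z and W. In the lists of T cells, B cells, monocytes, heterophils and red cells 0 passed. The mean of the thrombocyte markers ran from 6.84 to 9.18 in males, against 6.91 to 8.20 in females. Of the cytotoxic cell markers 3 of 3 measured were positive and none passed. GZMA (0.59) and GZMK (0.63) lie on Z, which males carry as a pair, and PRF1, which does not, differed by 0.021. Their mean ran from 5.31 to 7.06 in males, against 4.99 to 5.97 in females. With the mean of the 2 measured heterophil markers as a covariate, both genes kept their calls in limma. XCL1 then differed by 0.78 (adjusted p = 0.00439) and TLR1B by 0.50 (adjusted p = 0.0152). With the thrombocyte mean as a covariate, XCL1 differed by 0.56 (adjusted p = 0.0489) and TLR1B by 0.43 (adjusted p = 0.0738). With the cytotoxic mean the values were 0.47 for XCL1 (adjusted p = 0.0209) and 0.44 for TLR1B (adjusted p = 0.0635). Since 2 of the 3 genes in that mean lie on Z, this covariate partly follows sex itself. Its values therefore do not show what the cell type contributes. In RNA from whole blood, more cells of a type and more RNA per cell cannot be told apart.

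The males were also unevenly spread over bird numbers. Birds 17 to 32 held 10 males and 6 females, and birds 1 to 16 held 6 males and 10 females, with 8 birds of each diet in both sets. The mean of the thrombocyte markers also ran higher in birds 17 to 32 (7.37 to 9.18) than in birds 1 to 16 (6.84 to 7.95). Within birds 17 to 32 the XCL1 difference was 1.05 (adjusted p = 0.0330), and within birds 1 to 16 it was 0.57 (adjusted p = 0.311). For TLR1B the corresponding values were 0.41 (adjusted p = 0.513) and 0.66 (adjusted p = 0.0260). Over all 32 birds both genes kept their calls in limma with bird number in the fit. With a term for birds 17 to 32, XCL1 differed by 0.76 (adjusted p = 0.00530) and TLR1B by 0.49 (adjusted p = 0.0179). With bird number as a covariate the values were 0.81 (adjusted p = 0.00162) and 0.51 (adjusted p = 0.00870).

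The remaining sex differences did not pass. At an unadjusted p under 0.05 there were 11 of the 75 genes including XCL1 and TLR1B. The share was 16.5% over all probe sets and 14% over single-gene probe sets off Z and W. Those with positive differences were IL2RG, the shared gamma chain of several interleukin receptors (0.19 ± 0.060, adjusted p = 0.0665), CSF3R, the receptor of the growth factor of heterophils and neutrophils (0.20 ± 0.067), IL4R (0.23 ± 0.094) and IL1R1, the signalling receptor of IL1 (0.62 ± 0.24). Those with negative differences were TNFRSF11B, the decoy receptor of TNFSF11 (-0.39 ± 0.13), TNFRSF4 (-0.15 ± 0.052), IL21, a cytokine of helper T cells (-0.18 ± 0.073), IL18 (-0.38 ± 0.17) and CXCL12, the ligand of CXCR4 (-0.28 ± 0.13). IL8L1 came next at -0.68 ± 0.34 (adjusted p = 0.316). The 24 genes outside the rule for named genes lay between -0.18 and 0.26. IL1R1 gave a difference of 0.86 within birds 17 to 32 and 0.010 within birds 1 to 16, and 0.044 with the thrombocyte mean as a covariate. IL4R gave 0.030 within birds 17 to 32 and 0.44 within birds 1 to 16. The dimmer IL4R probe set gave 0.051 ± 0.055 over all birds (limma adjusted p = 0.726).

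Most of the differences were negative, that is, lower in males: 50 of 75, with 25 positive (33.3%, against 40.8% of all probe sets and 44.1% of single-gene probe sets off Z and W). The interleukins were negative in 15 of 16 genes, the exception being IL2 (0.053 ± 0.093), and their median was -0.069. None of them passed, and IL3, IL21, IL2 and IL4 were among the dimmest genes. The signs also varied by diet. Among control birds IL6 (0.057), IL12A (0.030), IL17A (0.030), IL25 (0.026) and IL15 (0.019) were positive and the others negative, IL2 (-0.032) included. Among comfrey-fed birds IL16 (0.24), IL2 (0.14) and IL7 (0.025) were positive and the others negative. The TNF receptors were negative in 7 of 8, the exception being TNFRSF9 (0.056 ± 0.079). Chemokines were negative in 9 of 11 and chemokine receptors in 5 of 6. The interleukin receptors and accessory proteins split into 11 positive and 9 negative, IL4I1 among the negative, and the TNF ligands into 3 and 3. Toll-like receptors were positive in 4 of 6, and both receptors of colony-stimulating factors were positive. The median over the 75 genes was -0.052, against -0.025 over all probe sets.

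The diet difference itself was compared between the sexes as the difference in males minus that in females. In limma 0 genes passed, against 0% of all probe sets, and 4 genes had an unadjusted p under 0.05, against 5.7% of all probe sets. The smallest p belonged to TNFSF15 (-0.39 ± 0.13, adjusted p = 0.847), the ligand of the death domain receptor TNFRSF25, which costimulates T cells. In males its lowest, median and highest signals were 5.84, 6.06 and 6.62 on comfrey, against 6.24, 6.48 and 6.59 on the control diet. In females they were 6.32, 6.46 and 6.58 on comfrey, against 6.08, 6.42 and 6.62 on the control diet. Of the 8 comfrey-fed males 6 lay below every control male, though the highest male value also came from a comfrey-fed bird. The diet difference in males was -0.31 ± 0.089 (adjusted p = 0.414) and in females 0.086 ± 0.089 (adjusted p = 0.998). Among comfrey-fed birds TNFSF15 was lower in males by 0.32 on the log2 scale and passed that test (adjusted p = 0.0420).

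The other 3 genes had positive interactions. CCR8, a receptor of CCL1 carried in mammals by regulatory and helper T cells, gave 0.42 ± 0.18, with a diet difference of 0.21 in males and -0.21 in females. IL16, a chemoattractant of CD4 cells, gave 0.55 ± 0.24, with 0.34 in males and -0.21 in females. TNFRSF9, a costimulatory receptor of activated T cells, gave 0.31 ± 0.15, with 0.20 in males and -0.11 in females. The adjusted p of each was 0.861, and the groups overlapped for each gene. For IL16, 1 control male (bird 31) stood lowest at 7.04, and without that bird the interaction was 0.40. The next genes by p were IL20RA (0.46 ± 0.26), CCL20 (0.22 ± 0.13), IL13RA1 (-0.20 ± 0.12) and IL9R (0.49 ± 0.32). For TNFRSF9, 1 comfrey-fed male (bird 24) stood highest at 7.93.

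**Figure D3:**
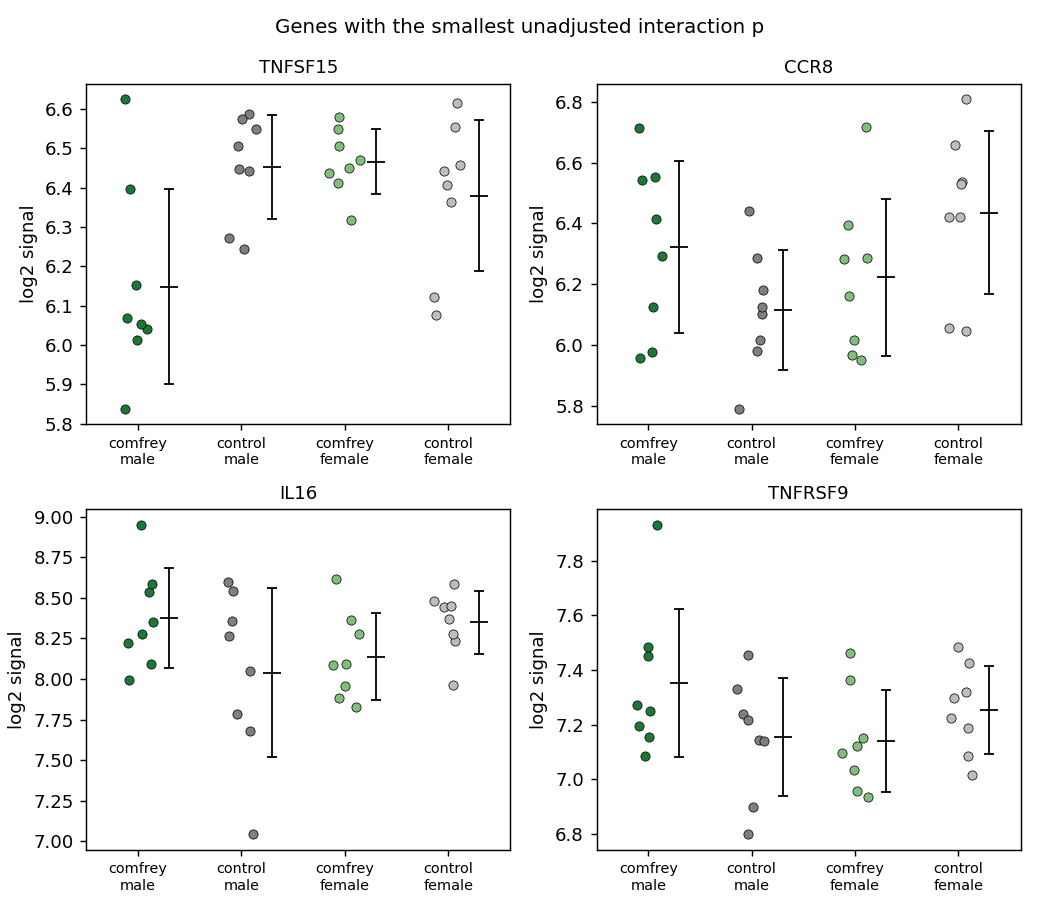
Log2 signal of TNFSF15, CCR8, IL16 and TNFRSF9 in each bird, 8 per group, with the mean and SD beside the points. Comfrey-fed males average 6.15 for TNFSF15 against 6.45 in control males, and none of the 4 interactions passed the test.

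Within each sex 0 genes passed for diet in limma. In females the background was 0.00559% of all probe sets, and 1 gene, IL15 (0.27 ± 0.11, adjusted p = 0.998), had an unadjusted p under 0.05, against 3.93% of probe sets. In males the background was 0%, and 5 genes had an unadjusted p under 0.05, against 10.3% of probe sets. They were TNFSF15, IL5RA (0.57 ± 0.25), CCL17 (-0.26), the enzyme IL4I1 (-0.21) and IL1RAPL1 (-0.17). IL4I1 and IL1RAPL1 were named after their values were seen.

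The genes differed widely in how far birds of the same diet and sex varied. The pooled SD within groups had a median of 0.258 over the 75 genes, against 0.231 over all probe sets, and exceeded 0.5 in 9 genes (12%, against 9.85% of all probe sets). IL8L1 had the largest SD at 1.01, and its signal ran from 6.47 in bird 31 to 10.82 in bird 15, a 20.5-fold range. It was followed by TNFRSF11A, the receptor of TNFSF11 (SD 0.946, around a mean signal of 3.36), CSF2RA, the receptor subunit specific for CSF2 (0.875), and IL8L2 (0.742). IL1R1 (0.730), IL1RL1 (0.627), XCL1 (0.548) and IL5RA (0.530) came next. TNFRSF4 varied least, with an SD of 0.137 and signals between 8.26 and 8.89. Bird 24, a comfrey-fed male, held the highest signal for 12 of the 75 genes, CCR7, CXCR4, CXCR5 and XCL1 among them, and the lowest for 4. Bird 31, a control male, held the lowest for 8 and the highest for 4. It also had the highest mean of the interferon response markers (12.39, against 8.71 to 12.39 over all birds). Over all probe sets, its array had the lowest median correlation with the other arrays (0.961, the highest such median being 0.972). Extremes by bird were not counted over all probe sets, so these counts do not show a trait of the 75 genes.

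IL8L1 and IL8L2 varied together. Both lie on chromosome 4, and after the mean of each diet and sex was removed their signals correlated over the 32 birds with a Pearson r of 0.79 and a Spearman rho of 0.74 (two-sided permutation p = 1e-05 for each, the smallest that 100000 resamples can give, adjusted p = 0.0001 over 10 pairs). The r was 0.71 in males and 0.88 in females, 0.83 in birds 17 to 32 and 0.91 in birds 1 to 16, and 0.79 without the 2 birds farthest from the median of IL8L1. Bird 18, a comfrey-fed female, was highest for IL8L2 (10.66) and second for IL8L1 (10.69), after bird 15, a control female. Among males, 4 of 8 comfrey-fed birds lay below every control bird for IL8L2, and 0 of 8 did for IL8L1. The IL8L1 count rests on bird 31, a control male with the lowest IL8L1 signal of all birds (6.47). Below the control male median lay 5 of 8 comfrey-fed males for IL8L2 and 6 of 8 for IL8L1. Neither gene passed for diet in males.

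**Figure D4:**
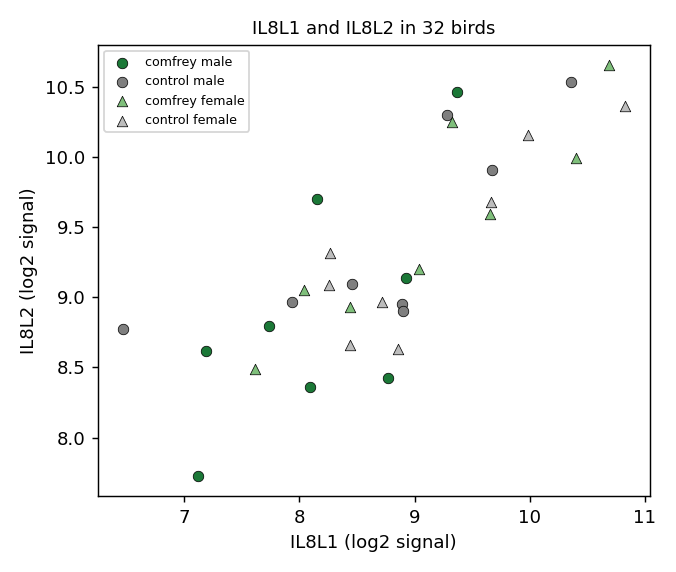
Log2 signal of IL8L2 against that of IL8L1 in the 32 birds, with circles for males and triangles for females. The signals rise together among males (r = 0.71) and among females (r = 0.88), and IL8L1 spans 6.47 to 10.82.

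The 10 pairs examined join a ligand with its receptor, a receptor with another receptor, or the chemokine IL8L1 with the chemokine IL8L2. Of them 5 passed by Pearson's r and 4 by Spearman's rho at a permutation p adjusted over the pairs. The permutations made no allowance for the diet and sex means removed, so their p-values come out somewhat too small. Adjusted values just under 0.05 are therefore borderline. With a term for birds 17 to 32 also removed from each gene, 2 passed by r (IL8L1 with IL8L2, r = 0.87, and TNFSF15 with TNFRSF25, r = 0.46) and 1 by rho (IL8L1 with IL8L2). TLR2A and TLR2, both on chromosome 4, correlated with r = 0.49 and rho = 0.49 (adjusted p = 0.0215 and 0.0234). TNFSF15 and its receptor TNFRSF25 correlated with r = 0.42 and rho = 0.42 (adjusted p = 0.0386 and 0.0416), with r = 0.48 in birds 17 to 32, 0.45 in birds 1 to 16 and 0.52 without the 2 farthest birds. With that term removed the adjusted p was 0.0406 for r and 0.109 for rho. TLR4 and TLR2A gave r = 0.41 and rho = 0.43 (adjusted p = 0.0400 and 0.0416), with 0.33 in birds 17 to 32, 0.15 in birds 1 to 16 and 0.32 without the 2 farthest birds. Both had higher means in birds 17 to 32 than in birds 1 to 16, by 0.75 for TLR4 (adjusted p = 0.000149) and by 0.18 for TLR2A (adjusted p = 0.248), and with that term removed the r of TLR4 and TLR2A was 0.21 (adjusted p = 0.399). TLR4 and CSF3R gave r = 0.43 and rho = 0.39 (adjusted p = 0.0386 and 0.0605), with 0.37 in birds 17 to 32, 0.34 in birds 1 to 16, 0.36 without the 2 farthest birds and 0.34 with that term removed (adjusted p = 0.135). TLR2A with TLR2 held 0.51 in birds 17 to 32, 0.23 in birds 1 to 16, 0.49 without the 2 farthest birds and 0.36 with that term removed (adjusted p = 0.135). Paralogous genes can share hybridisation, which was not tested for TLR2A with TLR2 or for IL8L1 with IL8L2.

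The other 5 pairs did not pass. XCL1 and XCR1 gave r = 0.15 and rho = 0.049 (adjusted p = 0.466 and 0.791), CXCL12 and CXCR4 r = -0.33 and rho = -0.26 (adjusted p = 0.103 and 0.206), and TNFSF11 and TNFRSF11A r = -0.27 and rho = -0.31 (adjusted p = 0.196 and 0.132). TNFSF13B, a survival factor of B cells, and its receptor TNFRSF13C gave r = 0.16 and rho = 0.12 (adjusted p = 0.466 and 0.547). TLR1A and TLR2A gave r = 0.11 and rho = 0.15 (adjusted p = 0.541 and 0.503).

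Bird number in the sample titles, whose meaning the labels do not give, went with differences in some genes. With diet and sex held in the fit, 5 of the 75 genes passed between birds 17 to 32 and birds 1 to 16, against 2.92% of all probe sets, and all 5 were higher in birds 17 to 32, against 2.21%. TLR4 ran from 7.82 to 9.02 in birds 17 to 32, against 7.12 to 8.14 in birds 1 to 16, with a fitted difference of 0.75 ± 0.11 (SE, limma adjusted p = 0.000149). IL1R1 ran from 4.81 to 7.26 in birds 17 to 32, against 4.36 to 5.54 in birds 1 to 16, with a difference of 0.98 ± 0.18 (adjusted p = 0.00144). For both genes the ranges overlapped in part. The mean of the thrombocyte markers likewise ran from 7.37 to 9.18 in birds 17 to 32, against 6.84 to 7.95 in birds 1 to 16. What cell makeup contributes to these differences was not tested.

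The other 3 were IL18RAP, the accessory chain of the IL18 receptor (0.52 ± 0.11, adjusted p = 0.00590), TLR2 (0.56 ± 0.14, adjusted p = 0.0219) and CCR7, which guides lymphocytes and dendritic cells to lymphoid tissue (0.38 ± 0.10, adjusted p = 0.0346). IL18 itself had a difference of 0.53 ± 0.16 that missed the threshold (adjusted p = 0.0564), and XCL1 one of 0.45 ± 0.17 (adjusted p = 0.169). Both sets held 8 birds of each diet, and within each set 0 of the 75 genes passed for diet in limma, against 0% of all probe sets. At an unadjusted p under 0.05 there were 7 in birds 17 to 32, against 7.21% of all probe sets, and 6 in birds 1 to 16, against 4.79%. IL18RAP was named after its value was seen.

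**Figure D5:**
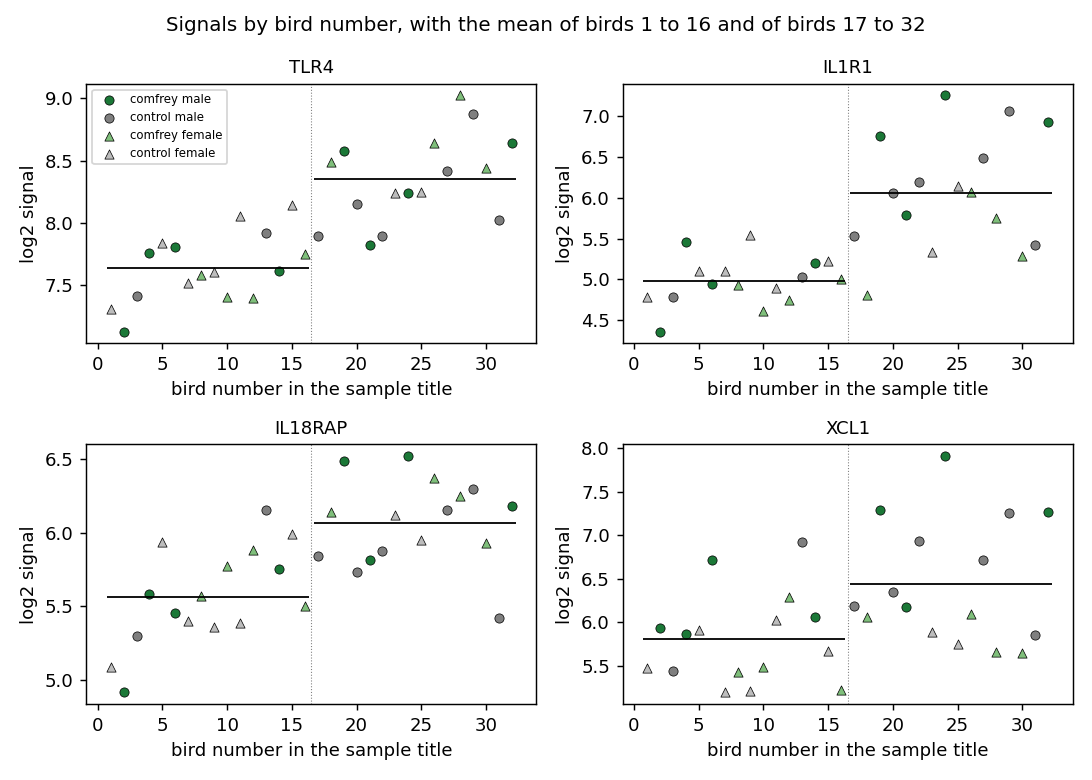
Log2 signal of TLR4, IL1R1, IL18RAP and XCL1 against the bird number in the sample title, with circles for males and triangles for females and a line at the mean of birds 1 to 16 and of birds 17 to 32. TLR4 averages 8.35 in birds 17 to 32 and 7.63 in birds 1 to 16, and IL1R1 averages 6.06 in birds 17 to 32 and 4.98 in birds 1 to 16.

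Genes that act downstream of these receptors gave few calls. Of 48 listed adaptors, kinases, transcription factors and feedback inhibitors, 29 had a value. For diet none of the 29 passed, against 0% of all probe sets, with 16 positive and 13 negative differences. At an unadjusted p under 0.05 in limma 4 were lower in comfrey-fed birds, against 4.43% of all probe sets, and 0 were higher. They were SOCS3 (-0.24 ± 0.084), CISH (-0.24 ± 0.083), TRAF5 (-0.32 ± 0.15) and CASP8 (-0.13 ± 0.061), named after their values were seen. Their adjusted p-values lay between 0.614 and 0.619. For sex only JAK2, a kinase of cytokine receptors encoded on Z, passed (0.21 ± 0.035, limma adjusted p = 3.52e-05), against 5.35% of all probe sets. JAK2 was higher in males, and the list held 17 positive and 12 negative sex differences. The interferon response markers were positive for sex in 6 of 6 genes and negative for diet in 6 of 6, with none past either test. Within females 5 were positive for diet and 1 negative, and within males 6 were negative. Their mean was 9.97 ± 1.06 in control males (SD, n = 8), where bird 31 reached 12.39, and 9.39 ± 0.70 in comfrey-fed males. In control and comfrey-fed females it was 9.16 ± 0.28 and 9.23 ± 0.18.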

How the data were processed

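The authors deposited log2 signals per probe set, made with GCOS 1.1.1 and RMA per the submitters' processing notes. RMA subtracts an estimated background, gives the arrays a common distribution of intensities and combines probes into probe sets, so a change shared by most genes would not show. No source used here names a genome build. Of 20804 rows, 2910 were blank in every array, and all 17894 others were tested without a filter. Probe sets took gene symbols from the platform annotation, which can be old. Of them 10264 carried 1 symbol, 182 several and 7448 none. Of the 75 genes, 72 were matched by gene id and 3 by symbol to RefSeq genes of assembly GRCg7b for chromosomes. Control probe sets were not identified and stayed in. Precision is set by the number of arrays.

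Linear models came from limma 3.58.1 under R 4.3.3 (lmFit, eBayes), two-sided, adjusted by Benjamini-Hochberg over all tested probe sets, with a call at an adjusted p under 0.05. Diet (comfrey minus control) held sex, and sex (male minus female) held diet. The interaction and the differences within a sex or a diet came from a mean per diet and sex. Correlations were taken on residuals from these means, with 100000 permutations and adjustment over 10 pairs. Residuals were permuted freely over the 32 birds, without allowance for the means removed. Of 32 pairs listed, 10 had both genes measured. The models were checked on simulated data. Tables and plots used Python 3.11.15, pandas 2.3.3, numpy 2.4.6, scipy 1.17.1 and matplotlib 3.10.9.

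The genes, lists, pairs and tests were chosen with earlier results of these data known. The named genes were every gene called, the 12 smallest p-values for diet, sex and interaction, the 8 largest SDs, and listed canonical genes where measured (33 of 53), 51 in all. Birds are separate animals by their numbered titles. The settings tried are given in the closing section, and those within sets of bird numbers, within a diet and with marker means were added after the data were seen. No sequence is printed.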

Additional observations from a re-analysis of the deposited data

Results flagged for a closer look

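Within the 4 groups of 8 birds, 9 of 204 sets of signals examined (4.41%) had 1 bird far from the others, by a gap to its nearest neighbour, as a share of the group's whole range, above Dixon's critical value at 95%. Chance marks about 1 in 20 such groups. Among comfrey-fed males, bird 24 stood above the rest for CXCR5 at 8.09, with the next bird at 7.18, and for TNFRSF9 at 7.93, with the next at 7.48. In the same group bird 4 stood highest for CCL20 at 6.15, with the next at 5.80, and bird 14 stood lowest for XCR1 at 4.26, with the next at 4.75. IL4R was marked in 2 groups, with bird 16 lowest among comfrey-fed females at 6.66 (next 7.13) and bird 31 lowest among control males at 6.76 (next 7.16). Among control females, bird 25 stood lowest for CXCL12 at 3.32 (next 4.18), bird 7 for IL12B at 4.57 (next 4.95) and bird 15 for TNFSF4 at 5.81 (next 6.09).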

How the results depend on the processing

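The counts of genes called for diet, for the interaction and for diet within each sex were 0 in every setting tried. The sex count of 2 became 1 in the 16 comfrey-fed birds alone, 0 in the 16 control birds alone, 1 within birds 17 to 32, 1 within birds 1 to 16, and 1 with the mean of the cytotoxic cell markers as a covariate. It ranged from 2 to 5 when 1 bird was left out, with 4 without control replicate 2 (IL2RG and TNFRSF11B joining) and 5 without comfrey replicate 9 (IL2RG, TNFRSF11B and CSF3R joining). Over those omissions XCL1 ran from 0.78 to 0.94 (limma adjusted p 0.000369 to 0.00379) and TLR1B from 0.49 to 0.59 (0.00101 to 0.0125). The 5 pair correlations past the threshold became 3 without the 2 farthest birds, 1 within birds 17 to 32 and 1 within birds 1 to 16, where fewer birds enter, and 2 with a term for birds 17 to 32 removed, as an alternative chosen after seeing the data. IL18 for sex passed with a term for birds 17 to 32 in the fit (-0.52, adjusted p = 0.0481) and with the thrombocyte mean (-0.64, adjusted p = 0.0207), and IL2RG passed when only probe sets above the median level were tested (adjusted p = 0.0378). Over 36 results for single genes, 1553 of 1574 recomputed values kept direction and side of the threshold, 7 lost the call, 14 gained one and 0 turned direction. Most of these results were not called at the outset and had no call to lose. The genes were picked for a call or for the smallest p-values in these same data. Most settings left out only 1 bird, so a kept direction was likely in advance. All 7 lost calls were of XCL1 and TLR1B for sex. Apart from the omissions of 1 bird, XCL1 kept its call in 12 of 15 settings and TLR1B in 12 of 16. No paired analysis was possible because the replicate numbers were given in accession order and the labels share none between groups. Dim probe sets were not tested against background, so differences in genes of low signal may have gone unseen.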
